A study of Mus musculus with 4 samples.

Results

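The genes of fibroblast growth factor (FGF) signalling were followed in GFP-sorted cells of the mouse neural tube. Genes were taken by symbol: the Fgf ligands, the receptors Fgfr1 to Fgfr4 and Fgfrl1, the inhibitors of the Spry and Spred families, Dusp6, and the transcription factors Etv4 and Etv5. That gave 37 genes with 84 probe sets, of 18193 genes with a probe set of a single symbol, and each gene was represented by its brightest probe set. Etv1 also belongs to the family but its 3 probe sets carry a second symbol, so it was not analysed here. Of the 37 genes, 22 had a mean deposited signal over the 4 arrays at or above 42.5, the 40th percentile of all probe sets, and were tested among 12751 genes. The other 15 were too dim to test.

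RNA came from neural tube between the limb levels of embryos at E10.5, of mixed B6SJLF1 and ICR background. The Atoh1-GFP cells, on 2 arrays, carry GFP in a bacterial artificial chromosome of the Atoh1 locus (line Atoh1BAC-GFP), which labels the population that forms dorsal interneuron 1 (dI1). The dNeurog1-GFP cells, on 2 arrays, carry GFP under a Neurog1 enhancer active in the dorsal neural tube, which labels dorsal interneuron 2 (dI2). Neither line carries a mutation named in the labels, and the labels do not count the embryos behind a sample. The labels describe cells sorted by GFP without stating that the arrays hold the GFP-positive fraction, and they are read so here.

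FGFs are secreted proteins that bind receptor tyrosine kinases together with heparan sulfate and signal through Ras and the MAP kinase ERK. ERK signalling induces its own inhibitors, among them the Sprouty and Spred proteins and the ERK phosphatase Dusp6, and the ETS factors Etv4 and Etv5, so these genes are widely used as readouts of FGF activity. In the early spinal cord, FGF from the caudal end of the embryo keeps cells in a progenitor state, while Fgfr2 and Fgfr3 are typical of the dividing cells that line the ventricle.

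Signals are MAS5 intensities, deposited with a trimmed mean of 250.001 on each replicate 1 array and 500.003 on each replicate 2 array. All 4 arrays were put on the higher of these trimmed means here, and the signals below are on that scale. On it the median signals were 138 and 76.0 for Atoh1-GFP, against 115 and 75.4 for dNeurog1-GFP (replicates 1 and 2). Each difference subtracts the dNeurog1-GFP from the Atoh1-GFP mean of log2(signal + 32), and the added 32 shrinks the change of dim genes. A gene was called at a limma adjusted p under 0.05 (Benjamini-Hochberg over the 12751 genes). Calls are given without the replicate number in the model and with it as a block. The block was used because deposited arrays of 1 number shared a trimmed mean. The labels do not say that these arrays were processed together. With 2 arrays a group, the number of arrays limits the precision.

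The labels were checked against markers of both populations. With the block all 5 dI1 markers (Atoh1, Barhl1, Barhl2, Lhx2 and Lhx9) were higher in Atoh1-GFP cells, and without it 4 of them were. Of the 5 dI2 markers, 4 were lower with the block (Neurog1, Neurog2, Lhx1 and Lhx5) and 3 without it. Foxd3, the fifth, had a difference of -1.19 (limma adjusted p = 0.103 with the block). Of 8 neural progenitor markers 4 (Sox1, Sox3, Pax6 and Fabp7) were, with the block, lower in Atoh1-GFP cells, and 0 were called without it (4 had an unadjusted p under 0.05). The summed signal of all 8 was 41468 and 32724 for Atoh1-GFP, against 59781 and 42568 for dNeurog1-GFP. Of 6 neuron markers 4 were higher with the block (Tubb3, Dcx, Elavl3 and Map2) and 0 were called without it (5 had an unadjusted p under 0.05). The sums over all 6 were 45978 and 49917 in Atoh1-GFP cells, against 23545 and 32875 in dNeurog1-GFP cells. With the block, Olig2 of 5 motor neuron markers and Ntn1 of 3 floor plate markers were lower, and Wnt3a of 2 tested roof plate markers and Myl7 of 4 heart muscle markers were higher, and 0 of these lists' genes were called without it (3, 1, 1 and 2 had an unadjusted p under 0.05). The other floor plate markers, Shh and Foxa2, lay the other way, with differences of 0.69 and 0.69 and groups that did not overlap, and were not called (limma adjusted p = 0.17 and 0.367 with the block). Among all markers tested, Olig2, Chat, Foxa2, Myh6, Myl7, Nppa and the red blood cell gene Alas2 passed the filter only through their higher population. This filter on dim probe sets thus favours a difference in them. Of the tested markers of neural crest and sensory ganglia (2), mesenchyme and somite (8), myotome (4), endothelium (2) and red blood cells (3), limma called 0 in either model, while 0, 0, 0, 0 and 2 had an unadjusted p under 0.05 without the block and 0, 0, 1, 1 and 3 with it, where 22.6% of all genes had one.

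Of the FGF genes, Fgf15, Spred1, Fgfr3 and Fgfr2 were, in the block model, lower in Atoh1-GFP than in dNeurog1-GFP cells. Without the block limma called 0 of the 22 tested FGF genes, where 0.165% of all genes were called, 0.0863% higher and 0.0784% lower. At an unadjusted p under 0.05, 5 were lower (5.12% of all genes were lower and 8.65% differed in either direction). With the block, whose calls were more liberal than the threshold states in the simulation described under the processing, it called 4, all lower. That is 18.2% of the 22, where 3.79% of all genes were called lower and 6.61% in either direction. None was called higher, where 2.82% of all genes were. Fgf15, Spred1 and Fgfr3 were at least 1 log2 unit lower within both replicate numbers, as were 1.18% of all genes. On both Atoh1-GFP arrays 6 of the 22 lay below both dNeurog1-GFP arrays (19.0% of all genes) and 2 lay above them (16.1%). The median difference of the 22 was -0.21, with 0.05 within replicate 1 and -0.38 within replicate 2, where the median of all genes was 0.00. Without Atoh1-GFP replicate 2 the median of the FGF genes was 0.06, and with the filter at the 60th percentile it was -0.35. In bulk samples such as these, fewer cells of a type and less RNA per cell cannot be told apart.

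**Figure D1:**
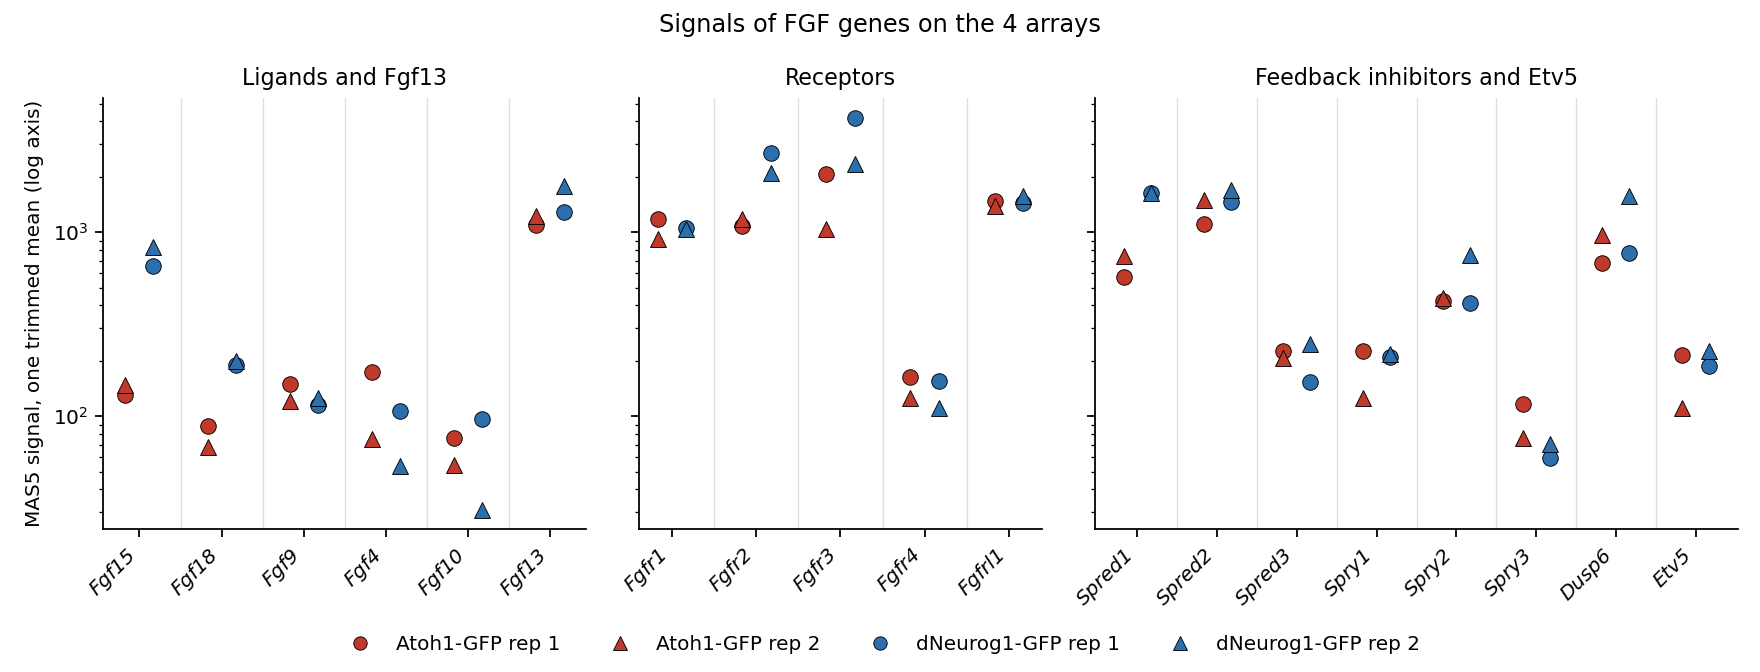
MAS5 signal on one trimmed mean (log axis) of FGF ligands with the intracellular Fgf13, receptors, and feedback genes with Etv5, with Atoh1-GFP arrays in red at the left of each gene, dNeurog1-GFP arrays in blue at the right, and replicates 1 and 2 as circles and triangles. Both red points lie below both blue points for Fgf15, Fgf18, Fgf13, Fgfr2, Fgfr3 and Spred1. Heights are not comparable between genes, which have different probes.

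The promoters of 3 of the 4 called genes, from 250 bases before to 50 after the start, are shown because both sorted populations are defined by basic helix-loop-helix factors, which bind E-boxes. They are RefSeq sequences on GRCm38.p6, the first entry of each gene, with every match to the E-box CANNTG in capitals (the motif reads the same on both strands).
Fgfr2 chr7:130266759-130267058 (- strand): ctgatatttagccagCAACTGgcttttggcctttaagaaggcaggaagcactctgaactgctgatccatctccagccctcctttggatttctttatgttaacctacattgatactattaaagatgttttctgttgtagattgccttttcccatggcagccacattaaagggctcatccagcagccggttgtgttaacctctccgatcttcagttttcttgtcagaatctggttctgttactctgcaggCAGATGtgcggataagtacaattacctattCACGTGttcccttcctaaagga
Fgfr3 chr5:33721474-33721773 (+ strand): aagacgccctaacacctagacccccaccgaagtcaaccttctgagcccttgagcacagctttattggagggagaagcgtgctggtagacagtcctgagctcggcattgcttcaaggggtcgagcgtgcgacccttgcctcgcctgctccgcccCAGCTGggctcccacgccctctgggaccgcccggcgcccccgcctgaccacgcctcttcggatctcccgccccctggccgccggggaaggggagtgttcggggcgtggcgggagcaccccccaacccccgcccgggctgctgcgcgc
Spred1 chr2:117120821-117121120 (+ strand): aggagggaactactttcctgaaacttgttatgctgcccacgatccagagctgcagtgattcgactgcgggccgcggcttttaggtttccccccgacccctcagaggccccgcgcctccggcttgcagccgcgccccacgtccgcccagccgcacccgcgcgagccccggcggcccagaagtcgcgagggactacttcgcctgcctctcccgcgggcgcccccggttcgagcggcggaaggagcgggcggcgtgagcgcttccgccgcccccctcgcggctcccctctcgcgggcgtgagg
The Fgfr2 window held 3 matches (CAACTG as well as CAGATG as well as CACGTG), the Fgfr3 window 1 (CAGCTG) and the Spred1 window 0. Of 27025 promoters of the same length 72.1% held CANNTG, 16.1% held CAGCTG and 17.2% held CAGATG on either strand. Among 27 of the 37 FGF genes with a promoter in the table, 21 held CANNTG, 7 held CAGCTG and 5 held CAGATG. The ETS motif CCGGAA, searched on both strands, was in 0 of the 3 windows shown, in 4 of the 27 and in 15.2% of all promoters. A match is a description of letters and not of binding.

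Fgf15 showed the largest difference of the 22 tested genes. It encodes an endocrine FGF, the mouse counterpart of human FGF19, which in the adult is released by the gut to restrain bile acid synthesis in the liver and in the embryo is made in the neural tube. Its signal was 130.1 and 148 in Atoh1-GFP cells, against 654 and 833 in dNeurog1-GFP cells (replicates 1 and 2). The groups did not overlap, and the Atoh1-GFP signals were 0.199 and 0.177 of the dNeurog1-GFP ones within replicates 1 and 2. The difference was -2.17 log2 units (standard error 0.27 without and 0.19 with the block), and the replicate numbers 1 and 2 gave -2.08 and -2.27. It missed the threshold narrowly without the block (limma adjusted p = 0.0518) and passed with it (adjusted p = 0.00429).

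With 1 array left out and no block, the difference of Fgf15 was -2.10 and -2.25 without Atoh1-GFP replicates 1 and 2. It was -2.34 and -2.01 without dNeurog1-GFP replicates 1 and 2. Such a fit has 1 residual degree of freedom, and the lone sample is assumed to vary like the other group. Only 1 population then spans both replicate numbers, so any shift between the numbers enters the difference. P-values and calls of such fits are therefore not given. With the block but no intensity trend in limma's variance model, the adjusted p of Fgf15 was 0.0528, and 0 of the 22 FGF genes and 0 of all genes were called.

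Among the 15 canonical ligands, which act on neighbouring cells, 4 were bright enough to test and limma called 0 in either model, with 1 at an unadjusted p under 0.05 in both (22.6% of all genes with the block). That one was Fgf18, a ligand of the Fgf8 subfamily, which is described here after its values were seen. The signal of Fgf18 was 88.9 and 67.5 in Atoh1-GFP cells, against 189 and 200.3 in dNeurog1-GFP cells. Every Atoh1-GFP array was below every dNeurog1-GFP array, at 0.470 and 0.337 of its level within replicates 1 and 2. The difference of -1.05 (standard error 0.25 with the block) missed the threshold at limma adjusted p = 0.0694, and without the block at 0.445. In 3 of 7 settings of the block model that tested it with the intensity trend, namely the deposited scale, quantile normalization and the 75th percentile scaling, it passed, with adjusted p from 0.0113 to 0.151 over the 7. Fgf18 and Fgf15 had deposited signals above the filter on each Atoh1-GFP array too, so neither was kept through the dNeurog1-GFP arrays alone.

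The remaining tested ligands had overlapping groups on the common scale. Fgf9, a ligand of neurons and epithelia, had 150.0 and 121 in Atoh1-GFP cells, against 115 and 126 in dNeurog1-GFP cells. Fgf4, a ligand of the limb ridge and myotome, had 173 and 74.7 in Atoh1-GFP cells, against 107 and 53.8 in dNeurog1-GFP cells. Fgf10, a mesenchymal ligand of limb and lung, had 75.6 and 54.3 in Atoh1-GFP cells, against 96.0 and 30.9 in dNeurog1-GFP cells. On this scale Fgf4 and Fgf10 thus differed more between the replicate numbers than between the populations, and their differences were 0.44 and 0.10. For both genes this depends on the rescaling. The deposited signals of Fgf4 were 86.5 and 74.7 in Atoh1-GFP cells, against 53.4 and 53.8 in dNeurog1-GFP cells, and did not overlap. Those of Fgf10 were 37.8 and 54.3 in Atoh1-GFP cells, against 48.0 and 30.9 in dNeurog1-GFP cells, and overlapped. Fgf10 had a mean deposited signal of 39.5 in dNeurog1-GFP cells, under the filter. The Atoh1-GFP arrays alone brought it into the test, which favours a difference.

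The dim genes comprised 13 ligands (Fgf1, Fgf2, Fgf3, Fgf5, Fgf6, Fgf7, Fgf8, Fgf16, Fgf17, Fgf20, Fgf21, Fgf22 and Fgf23), with Spry4 and Etv4. Their mean deposited signals ran from 7.65 to 40.1, and their signals on single arrays from 1.11 to 104. Groups overlapped for 12 of the 15, Fgf5 and Etv4 were lower on both Atoh1-GFP arrays, and Fgf21 was higher. Fgf8, the ligand of the caudal neural plate and of the isthmus, had 8.33 and 25.5 in Atoh1-GFP cells, against 7.68 and 60.2 in dNeurog1-GFP cells. No detection calls were used, so these probe sets are described as dim and nothing is said of absence.

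The 4 intracellular FGFs, Fgf11 to Fgf14, lack a secretion signal and bind voltage-gated sodium channels in neurons. All 4 were tested and limma called 0 in either model, with 0 at an unadjusted p under 0.05 without the block and 1, Fgf13, with it, a share near the 22.6% of all genes. Fgf13, which also binds microtubules in growing axons, had 1089 and 1217 in Atoh1-GFP cells, against 1293 and 1789.6 in dNeurog1-GFP cells. Its groups did not overlap, yet the difference was small at -0.39 (95% interval -0.72 to -0.06 with the block, limma adjusted p = 0.161). A second Fgf13 probe set, with a mean deposited signal of 43.0 near the filter, had overlapping groups. It differed by 0.13 within replicate 1 and -0.42 within replicate 2. Fgf11 was higher on both Atoh1-GFP arrays, with 163 and 146 in Atoh1-GFP cells, against 109.8 and 96.3 in dNeurog1-GFP cells. It differed by 0.47, by 0.46 in replicate 1 and by 0.48 in replicate 2 (adjusted p = 0.319 with the block). Fgf12 had 108 and 54.5 in Atoh1-GFP cells, against 94.6 and 42.1 in dNeurog1-GFP cells. Fgf14 had 142 and 71.9 in Atoh1-GFP cells, against 110.0 and 122 in dNeurog1-GFP cells. On the common scale both overlapped between the groups, beside the 4 of 6 neuron markers that the block model called higher in Atoh1-GFP cells. For Fgf12, with a mean deposited signal of 49.5 near the filter of 42.5, the overlap depends on the rescaling. Its deposited signals were 54.0 and 54.5 in Atoh1-GFP cells, against 47.3 and 42.1 in dNeurog1-GFP cells.

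Of the 4 signalling receptors, Fgfr3 and Fgfr2 were with the block lower in Atoh1-GFP cells, and Fgfr1 and Fgfr4 were not called. Fgfr3, a receptor of ventricular zone progenitors and later of astrocyte precursors, had 2059.6 and 1045 in Atoh1-GFP cells, against 4185 and 2339 in dNeurog1-GFP cells. Each Atoh1-GFP array held 0.492 and 0.447 of the dNeurog1-GFP signal of its replicate number. Within each population replicate 1 was the brighter on the common scale, which depends on the rescaling. The deposited signals were 1029.8 and 1045 in Atoh1-GFP cells, against 2092 and 2339 in dNeurog1-GFP cells. The difference was -1.07, and the replicate numbers 1 and 2 gave -1.01 and -1.14. Its standard error was 0.40 without the block and 0.12 with it (limma adjusted p = 0.492 and 0.0076).

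Fgfr2, which has epithelial and mesenchymal splice forms that bind different ligands, had 1078 and 1182 in Atoh1-GFP cells, against 2689.9 and 2097 in dNeurog1-GFP cells. The groups did not overlap, and the difference was -1.05, and the replicate numbers 1 and 2 gave -1.29 and -0.81 (standard error 0.24 without and 0.15 with the block, limma adjusted p = 0.199 and 0.018). With 1 array left out and no block, the Fgfr3 difference depended on the array. It was -1.55 without Atoh1-GFP replicate 1 and -1.49 without dNeurog1-GFP replicate 2. Without Atoh1-GFP replicate 2 it was -0.60, and without dNeurog1-GFP replicate 1 it was -0.66. In such fits the Fgfr2 difference ran from -1.23 to -0.875.

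Fgfr1, the receptor most broadly used in the early neural plate, had 1179 and 923 in Atoh1-GFP cells, against 1059 and 1037 in dNeurog1-GFP cells. Its groups overlapped, and the 95% interval of its difference with the block was -0.35 to 0.34 around -0.01. Fgfrl1, a receptor-like protein without the kinase domain, had 1484 and 1383 in Atoh1-GFP cells, against 1435 and 1569 in dNeurog1-GFP cells, with an interval of -0.38 to 0.25. Fgfr4 had 163 and 125 in Atoh1-GFP cells, against 155 and 111 in dNeurog1-GFP cells, with a wider interval of -0.48 to 0.68. All 3 intervals leave out a difference of 1 unit on the log2(signal + 32) scale in either direction.

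Of the 8 progenitor markers, the 4 called with the block were lower in the same cells as Fgfr2 and Fgfr3, and the other 4 were not called. Sox1, a SoxB factor of neural progenitors, differed by -1.75 with -1.72 within replicate 1 and -1.77 within replicate 2. Fabp7, a lipid-binding protein of radial progenitors, had -1.56 and -1.40 within replicates 1 and 2. Pax6 had -1.48 and -1.73, and Sox3 had -1.40 and -1.27. Sox2, Nes and Vim, further genes of progenitors, differed by -0.11, 0.40 and -0.05 and were not called in either model (limma adjusted p = 0.642, 0.279 and 0.854 with the block), nor was the Notch target Hes5 (-0.65, adjusted p = 0.205). The part of progenitor content in the differences of Fgf15, Fgfr2, Fgfr3 and Spred1 was not tested.

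**Figure D2:**
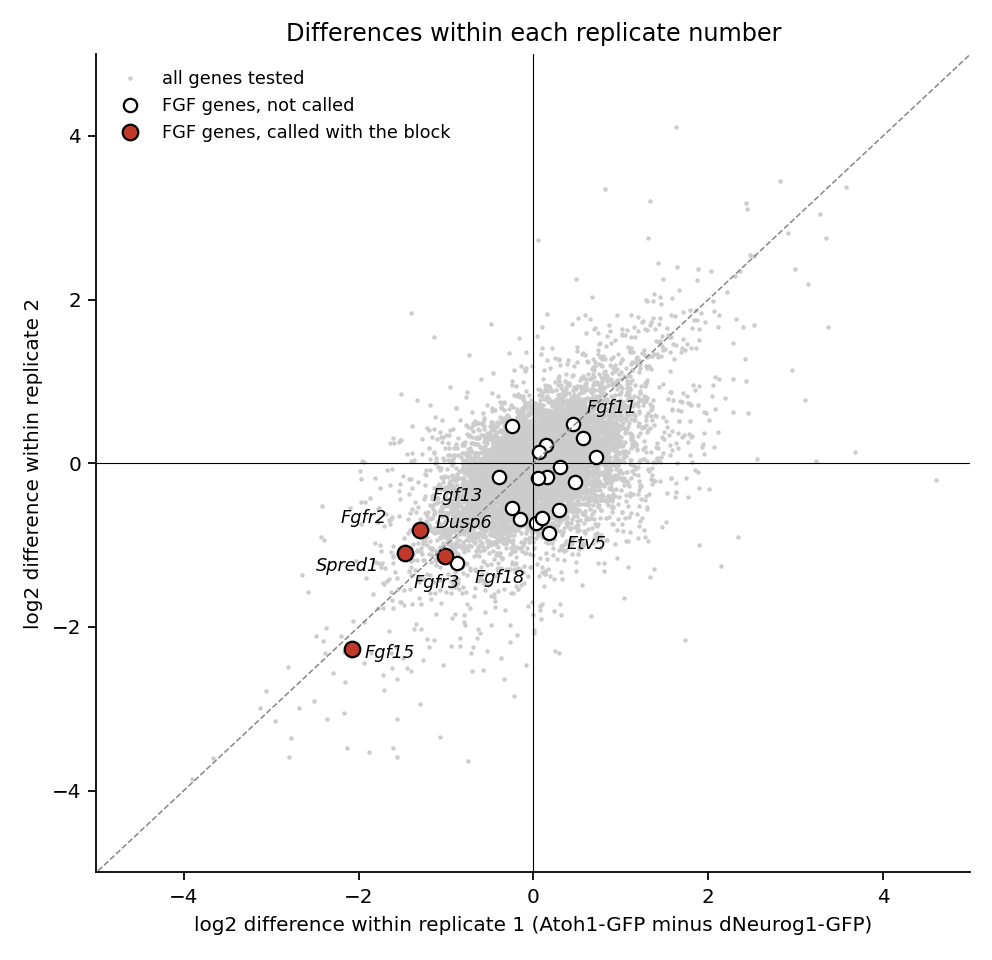
Log2 difference, Atoh1-GFP minus dNeurog1-GFP, within replicate 1 (horizontal axis) and within replicate 2 (vertical axis), for all 12751 genes tested in grey and the 22 tested FGF genes as circles, filled red where called with the replicate block. The 4 red genes and Fgf18 lie near the dashed line of equal differences. Calls with the block favour genes near that line, since the model takes its spread from the distance to it. Etv5 lies at 0.18 within replicate 1 and -0.85 within replicate 2.

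Of the feedback inhibitors, Spred1, a membrane-bound inhibitor of Ras-to-Raf signalling, was, with the block, lower in Atoh1-GFP cells, and the other 6 tested inhibitors were not called. Spred1 had 568 and 741 in Atoh1-GFP cells, against 1632 and 1622 in dNeurog1-GFP cells. The groups lay far apart, with Atoh1-GFP at 0.348 and 0.457 of dNeurog1-GFP within replicates 1 and 2. The difference was -1.29, and the replicate numbers 1 and 2 gave -1.47 and -1.10 (standard error 0.24 without and 0.15 with the block, limma adjusted p = 0.122 and 0.00971). With 1 array left out and no block, the difference ran from -1.47 to -1.10.

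The relatives of Spred1 were not called. Spred2, which acts on the same step, had 1104 and 1494 in Atoh1-GFP cells, against 1455 and 1685 in dNeurog1-GFP cells, a difference of -0.28 (95% interval -0.59 to 0.03 with the block). Spred3 had 226 and 206 in Atoh1-GFP cells, against 154 and 246 in dNeurog1-GFP cells. Both overlapped between the populations. The 4 Spred2 probe sets above the filter disagreed in direction, from -0.36 to 0.81, and 2 of them were higher within both replicate numbers. The difference between Spred1 and Spred2 was not itself tested.

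Dusp6, the phosphatase that inactivates ERK, had 683 and 963 in Atoh1-GFP cells, against 766 and 1570.3 in dNeurog1-GFP cells. The groups overlapped, and the difference was -0.16 within replicate 1 and -0.69 within replicate 2. Spry2, a Sprouty inhibitor of receptor signalling, had 424 and 438 in Atoh1-GFP cells, against 414 and 749.7 in dNeurog1-GFP cells. Its difference was 0.03 within replicate 1 and -0.73 within replicate 2. Spry1, of the same family, had 225 and 125 in Atoh1-GFP cells, against 209 and 218 in dNeurog1-GFP cells, with 0.09 and -0.67 within the replicate numbers. In these 3 genes the populations were nearly level within replicate 1 and Atoh1-GFP was the lower within replicate 2.

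The transcription factor Etv5, an ERK-responsive ETS gene, showed the same order. It had 216 and 111 in Atoh1-GFP cells, against 188 and 226 in dNeurog1-GFP cells, with differences of 0.18 and -0.85 within replicates 1 and 2. Its dim relative Etv4 had 26.4 and 28.0 in Atoh1-GFP cells, against 33.3 and 34.2 in dNeurog1-GFP cells. With the block the limma adjusted p was 0.212 for Dusp6, 0.415 for Spry2, 0.581 for Spry1 and 0.566 for Etv5, and 95% intervals of the difference ran from -0.83 to -0.01, -0.90 to 0.19, -0.94 to 0.36 and -1.08 to 0.40. With the block a difference of -1 on this scale is inside the interval of Etv5. The block intervals of the other 3 genes leave it out. Without the block the intervals of all these genes include a difference of -1. They ran from -1.31 to 0.47 for Dusp6, -1.11 to 0.41 for Spry2, -1.14 to 0.56 for Spry1 and -1.24 to 0.57 for Etv5. Spry3 had 117 and 75.7 in Atoh1-GFP cells, against 59.1 and 70.4 in dNeurog1-GFP cells, a difference of 0.39 with groups that did not overlap (adjusted p = 0.495 with the block).

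Markers of motor neurons also had larger differences within replicate 2, a contrast that was not tested. Their median difference over 5 genes was -0.64 within replicate 1 and -2.10 within replicate 2, and their summed signal was 577 and 199 in Atoh1-GFP cells, against 809 and 2189 in dNeurog1-GFP cells. The 8 mesenchyme and somite markers had medians of 1.20 within replicate 1 and -0.37 within replicate 2, with sums of 5312 and 4200 in Atoh1-GFP cells, against 2325 and 6683 in dNeurog1-GFP cells. The part of these cells in the replicate 2 differences of Dusp6, Spry1, Spry2 and Etv5 was not tested.

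Several members were read by more than 1 probe set above the filter, and these did not always match. Both Fgfr2 probe sets were lower for Atoh1-GFP within each replicate number, with differences of -1.05 and -0.92, and each passed with the block (limma adjusted p = 0.018 and 0.0377). Of 6 Spred1 probe sets, 5 were lower within both replicate numbers and differences ran from -1.29 to -0.42. The 2 brightest, with mean deposited signals of 866 and 851, passed with the block, and the 4 dimmer ones did not (adjusted p from 0.106 to 0.446).

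For Fgfr3 the call rests on 1 probe set. Its other probe set, with a mean deposited signal of 135 against 1627, differed by -0.24 (limma adjusted p = 0.591 with the block). For Fgfr1 the brightest probe set was level, while the dimmer ones differed by -0.48 and -0.36, both lower within both replicate numbers (adjusted p = 0.204 and 0.367). The brightest probe sets of Fgfr1, Fgfr2, Fgfrl1 and Spred1 have the suffix that Affymetrix gives to probe sets shared by several transcripts. These can be of the same gene or of different genes. Neither splice forms nor any signal from another gene are therefore separated. Fgf15, Fgf18, Dusp6 and Spry1 each had a single probe set above the filter.

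**Figure D3:**
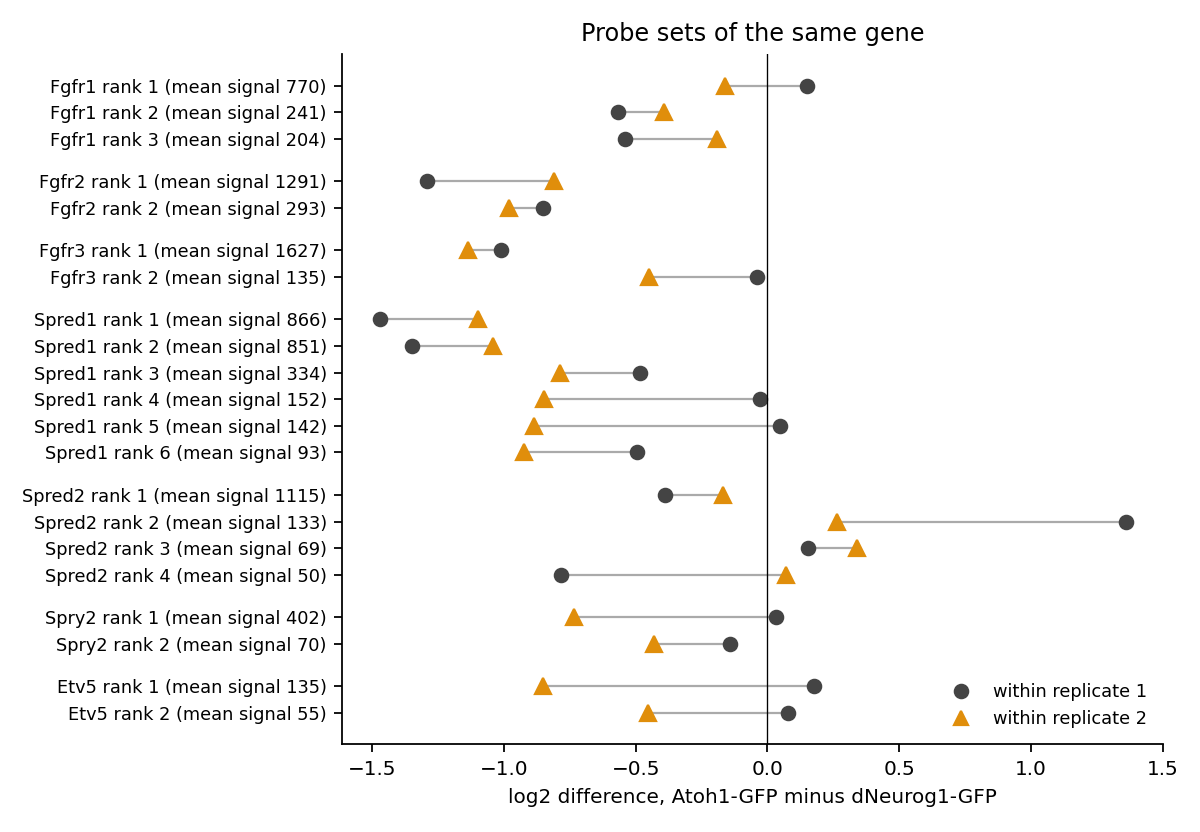
Log2 difference, Atoh1-GFP minus dNeurog1-GFP, within replicate 1 (circles) and replicate 2 (triangles), for each probe set above the filter of 7 FGF genes, ranked by mean deposited signal within a gene. The Fgfr2 probe sets and the 2 brightest Spred1 probe sets lie between -1.47 and -0.81, and the dimmer Fgfr3 probe set lies nearer 0 than the brighter one.

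Beyond these genes, 67 further genes of the pathway were listed in 5 groups, of which 51 were tested. Without the block limma called 0 of them, with 7 at an unadjusted p under 0.05. With the block it called 1 higher (Gpc2) and 4 lower (Fgfbp3, Sdc1, Glce and Sp5), which is 9.8% of the 51 beside 6.61% of all genes. The median difference of the 51 was -0.05. That count of 5 ran from 3 without the filter to 10 with quantile normalization in the settings of the block model that kept the intensity trend, and was 0 without the trend.

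Of 13 tested co-receptors and ligand-binding proteins 3 passed with the block. Fgfbp3, a secreted carrier that binds FGFs, had 418 and 467 in Atoh1-GFP cells, against 1306 and 2324 in dNeurog1-GFP cells, a difference of -1.91 with no overlap (limma adjusted p = 0.00636 with the block). Gpc2, a heparan sulfate proteoglycan of growing neurons, had 3495 and 2993 in Atoh1-GFP cells, against 1228 and 1514 in dNeurog1-GFP cells. It was higher by 1.23 (adjusted p = 0.0122). Sdc1, a syndecan that carries heparan sulfate, had 1237 and 1078 in Atoh1-GFP cells, against 2015 and 2026 in dNeurog1-GFP cells (-0.79, adjusted p = 0.0229).

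Of 12 tested heparan sulfate enzymes 1 passed. It was Glce, the epimerase of the heparan sulfate chain, with 575 and 475 in Atoh1-GFP cells, against 933 and 903 in dNeurog1-GFP cells (-0.78, limma adjusted p = 0.0384 with the block). Of 13 tested adaptors and members of the Ras and MAP kinase relay, 0 were called in either model, with 0 at an unadjusted p under 0.05 without the block and 4 with it (22.6% of all genes with the block), and the median difference was 0.12. Of 8 other feedback genes, among them Il17rd and further Dusp phosphatases, 0 were called in either model, with 0 and 1 at an unadjusted p under 0.05 without and with the block (8.65% and 22.6% of all genes). That 1 gene, Dusp5, had a mean deposited signal of 39.5 in dNeurog1-GFP cells, under the filter. It was tested only through the Atoh1-GFP arrays, which favours a difference. Of the 8 genes, 5 were higher on both Atoh1-GFP arrays than on both dNeurog1-GFP arrays (16.1% of all genes). On both, 0 were lower (19.0% of all genes), and the median difference was 0.21.

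Of 5 tested genes listed with caudal progenitors 1 passed with the block. The list is mixed, since Aldh1a2 is an enzyme of retinoic acid synthesis and not a gene of these progenitors. Sp5, a zinc-finger target of Wnt signalling, had 10.8 and 58.3 in Atoh1-GFP cells, against 224 and 237 in dNeurog1-GFP cells (-2.08, limma adjusted p = 0.0229). Its mean deposited signal in Atoh1-GFP cells, 31.9, was under the filter, so it was tested only through the dNeurog1-GFP arrays, which favours a difference. The other 4 (Nkx1-2, Tbx6, Cyp26a1 and Aldh1a2) were not called. Nkx1-2, with a mean deposited signal of 31.0 in Atoh1-GFP cells, was also tested only through the dNeurog1-GFP arrays. Cdx1, Cdx2 and Cdx4 were below the filter.

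**Figure D4:**
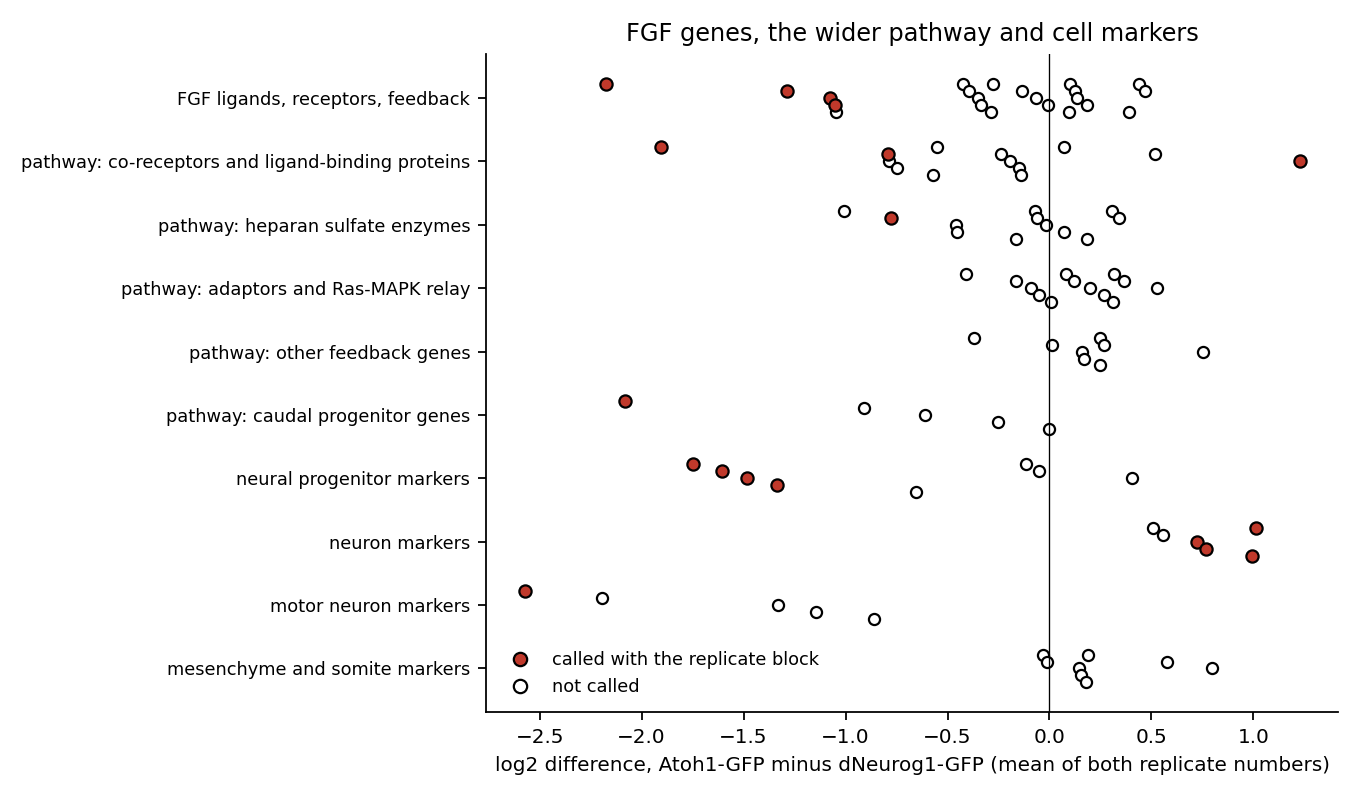
Log2 difference, Atoh1-GFP minus dNeurog1-GFP, of each tested gene in the FGF set, in 5 lists of the wider pathway and in 4 lists of cell markers, with genes called with the replicate block in red. The 4 called FGF genes, from -2.17 to -1.05, lie on the same side as the 4 called progenitor markers. The other progenitor markers, Sox2, Vim, Nes and Hes5, lie at -0.11, -0.05, 0.40 and -0.65 and are not called. No gene of the adaptor and relay list is called.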

How the data were processed

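The authors deposited linear MAS5 signal intensities for each of the 4 arrays. The submitters' processing notes name MAS5 and no other tool, and give neither a version nor a scaling target. Trimmed means (2% left out at each end) of the 45101 probe sets showed targets that differed by replicate number. Each array was therefore rescaled here to one trimmed mean. The 64 control probe sets were left out. The platform annotation gave 1 gene symbol to 34945 of the rest and several to 932, and left 9160 unnamed here. A gene was its brightest single-symbol probe set by mean deposited signal, kept at or above the 40th percentile.

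Differences on log2(signal + 32) were tested with limma 3.58.1 in R 4.3.3 (lmFit, eBayes with an intensity trend), without a block and, since each scaling target holds 1 array of each population, with the replicate number as a block. The models have 2 and 1 residual degrees of freedom, beside a median prior of 4.8 and 5.1, so p-values rest largely on the spread shared across genes. On data simulated from these arrays the block model recovered most changed genes, but the false share of its calls exceeded the 0.05 that the threshold states. The model without the block made few calls there, none of them false. The simulation gave each gene its shift by replicate number and took its noise from the block fit. Recovery by the block model and few calls without the block were therefore built in. All 37 FGF genes matched the reference gene table by gene identifier.

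Genes named in full were those called in either model or at least 1 log2 unit apart within both replicate numbers, all receptors, and the Dusp6 and Etv readouts, and the values of further members were added after they were seen. The genes and lists were chosen with earlier results of these data known. Nothing in the labels says that the arrays of a population came from separate litters, so p-values measure only the spread between these samples, which may be technical.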

Additional observations from a re-analysis of the deposited data

How the results depend on the processing

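Fgf15, Fgf18, Spred1, Fgfr2 and Fgfr3 stayed lower in Atoh1-GFP cells in all settings that tested them. The median of the FGF genes (-0.21) was negative except without Atoh1-GFP replicate 2 (0.06), and lowest with the filter at the 60th percentile (-0.35). Over all genes 21 were called, and leaving out 1 array gave 151 to 369, with 1 to 2 FGF genes and 1 to 3 pathway genes. Signals as deposited gave 13 genes (1 higher and 12 lower, against 11 and 10), and no intensity trend gave 0, also with the block. The replicate block gave 843 genes, 4 FGF genes and 5 pathway genes, as it did for the FGF genes with pseudocounts 16 (912 genes, 5 of the pathway) and 64 (881 and 5), no filter (353 and 3) and a filter at the 60th percentile (907 and 4). It gave 5 FGF genes, Fgf18 added, on deposited signals (1169 and 7), after quantile normalization (1673 and 10) and with 75th percentile scaling (1224 and 8). The block alone and on deposited signals was planned, and its other settings were added after seeing the data. The cause of these changes was not tested.

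Among the FGF genes followed across settings, signs turned only for genes called in no setting. Fgfr1 had 0.0268 and Fgfr4 -0.0329 after quantile normalization without and with the block, and the second Fgfr4 probe set had -0.1233 in both models. With 1 array left out, differences ran from -0.18 to 0.17 for Fgfr1, -0.10 to 0.29 for Fgfr4, -0.74 to 0.0596 for Etv5, -0.64 to 0.0688 for Spry1, -0.93 to 0.0805 for Dusp6 and -0.76 to 0.0532 for Spry2. Deviations of arrays with the same replicate number correlated at 0.644 across genes, which are not independent replicates. With 2 numbers this shows no pairing by design. The block with 1 array left out has no residual degree of freedom and was not run.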
